A study of Mus musculus with 3 samples.

Results

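Ly6c2 high cells were examined in injured mouse muscle by single-cell RNA sequencing. They were the cells with at least 5 UMIs (unique molecular identifiers, each counting 1 captured transcript) of Ly6c2 among cells that passed a macrophage and monocyte gate. The gate required at least 500 genes, under 10% mitochondrial UMIs, at least 3 UMIs summed over Adgre1, Csf1r and Fcgr1, and no UMI of Pdgfra, Cd209a or Cd3e. Cells with 5 or more UMIs summed over Mki67, Top2a, Cdk1, Birc5 and Cenpf were counted as cycling and were not members. The rule found 2656 members among 19974 gated cells (13.3%) and 35247 cells that passed the cell filter (7.54%). The other 17318 gated cells are called other gated cells here, and they include the cycling cells.

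The tibialis anterior muscles of C57/BL6J mice were damaged with BaCl2, and cells were collected 4 days later. Young PBS mice were 3 to 4 months old and old PBS mice 24 to 26 months old, and both received vehicle. Old rMETRNL mice had the age of the old PBS mice and received recombinant meteorin-like protein by intramuscular injection. Each group was 1 library made from pooled triplicate samples, so there were no replicates and no test was possible. Intervals of shares, levels and ratios cover counting error only and treat each cell or UMI as a separate draw. Intervals of list medians cover the spread over genes. Young PBS had 1060 members, old PBS 534 and old rMETRNL 1062, and where 3 values follow each other below they are in this order.

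Ly6c2 encodes a surface protein of classical monocytes, which leave the bone marrow through the chemokine receptor Ccr2 and enter damaged muscle within hours to days. There they take up debris, secrete cytokines and mature into macrophages, and during that course they lose Ly6C and gain genes of lysosomes, lipid handling and complement. Interferons act on such cells through transcription factors that bind a promoter element built from repeated GAAA.

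That element is shown for 4 interferon-stimulated genes reported below, picked among those whose window held it and overlapped no exon. Each run covers the 250 bases before the RefSeq transcription start (GRCm38.p6), 5′ to 3′ on the gene's own strand, and capitals mark the motif searched, GAAA followed by any 2 bases and GAAA again, or its reverse complement, with overlapping matches joined.
Ifit3, chr19:34583279-34583528, plus strand: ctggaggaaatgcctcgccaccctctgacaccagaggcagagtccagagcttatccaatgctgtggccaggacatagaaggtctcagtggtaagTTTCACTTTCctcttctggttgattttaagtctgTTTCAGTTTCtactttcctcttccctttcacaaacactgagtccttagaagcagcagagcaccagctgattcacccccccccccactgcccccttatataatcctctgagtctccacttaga
Ifit3b, chr19:34607707-34607956, plus strand: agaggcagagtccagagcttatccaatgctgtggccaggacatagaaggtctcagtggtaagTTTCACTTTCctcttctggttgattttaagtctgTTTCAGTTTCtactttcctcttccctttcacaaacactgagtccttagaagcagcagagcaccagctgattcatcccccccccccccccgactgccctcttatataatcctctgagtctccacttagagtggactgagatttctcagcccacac
Cxcl10, chr5:92348890-92349139, minus strand: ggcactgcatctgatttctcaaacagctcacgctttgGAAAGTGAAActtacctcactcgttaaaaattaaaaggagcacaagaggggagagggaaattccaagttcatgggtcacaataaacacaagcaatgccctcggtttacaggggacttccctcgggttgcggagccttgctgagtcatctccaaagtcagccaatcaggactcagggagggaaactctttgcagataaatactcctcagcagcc
Isg15, chr4:156200819-156201068, minus strand: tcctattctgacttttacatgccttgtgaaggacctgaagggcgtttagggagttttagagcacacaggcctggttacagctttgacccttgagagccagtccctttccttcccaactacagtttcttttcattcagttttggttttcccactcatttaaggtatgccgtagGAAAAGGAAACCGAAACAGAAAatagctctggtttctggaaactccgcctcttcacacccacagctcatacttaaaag
There were 2 matches in Ifit3, 2 in Ifit3b, 1 in Cxcl10 and 3 in Isg15. The windows of Irf7 and Ifit2 held 0, and that of Ifit1, which overlapped exons, held 2. The windows shown overlapped 0 exons of GENCODE M21. Of the interferon-stimulated genes with a promoter in the reference, 23 of 44 (52.3%) held a match on either strand, against 695 of 20267 genes of the files (3.43%). Among macrophage maturation genes it was 2 of 39 (5.13%). None of the 10 leading genes of the Ly6c2 high cells with a promoter held one, and a match is a description of letters, not a measured binding site. Ifit3 and Ifit3b are near-identical neighbours on chromosome 19, so their UMIs could be split between them.

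To learn how common the Ly6c2 high cells were in each library, their share of the gated cells was counted. It was 15.9% in young PBS (1060 of 6657, exact 95% interval 15.05 to 16.8%). It was 8.59% in old PBS (534 of 6219, 7.90 to 9.31%). In old rMETRNL it was 14.96% (1062 of 7098, 14.1 to 15.8%). The old PBS share was 0.539 times that of young PBS (0.485 to 0.599), and the old rMETRNL share was 1.74 times that of old PBS (1.57 to 1.94). The old rMETRNL share was 0.9396 times that of young PBS (0.862 to 1.02). As a share of all filtered cells that ratio was 0.894 (0.820 to 0.974), and after thinning every cell to 5000 UMIs it was 0.917 (0.843 to 0.998), so whether the interval holds equality depends on the count used. The gated cells themselves were 58.4%, 56.2% and 55.5% of the filtered cells.

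**Figure D1:**
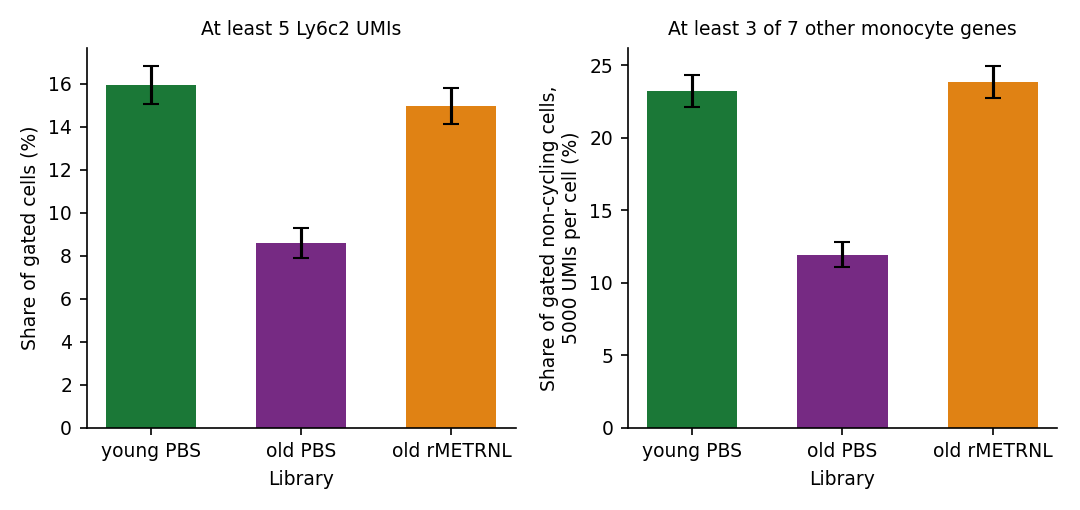
Bars give, for each library, the share of gated cells with at least 5 Ly6c2 UMIs (left) and of gated non-cycling cells, thinned to 5000 UMIs, with at least 3 of 7 other monocyte genes (right), in percent with exact 95% intervals that cover counting error only. Old PBS is the lowest bar in both panels, at 8.59% and 11.9%.

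The members of old PBS also held fewer Ly6c2 UMIs, with a median of 13 against 16 in young PBS and 15 in old rMETRNL, although their median depth of 13175 UMIs was above 11254 and 11106. Cells at the threshold, with 5 or 6 Ly6c2 UMIs, numbered 139, 94 and 161, and cells just outside it, with 3 or 4, numbered 257, 168 and 234. Thinning every cell to 5000 UMIs and counting non-cycling cells with 2 or more Ly6c2 UMIs gave shares of 17.2%, 8.94% and 15.8%. Free RNA was read from cells with at least 3 Pdgfra UMIs and no UMI of a gate gene, which should lack Ly6c2. At least 1 Ly6c2 UMI was found in 5.19%, 2.39% and 5.43% of them against 32.4%, 21.96% and 31.2% of gated cells, with 26304, 23583 and 25835 median UMIs in the Pdgfra cells. At least 5 UMIs were found in 0 of 983 (which allows up to 0.305%), 1 of 878 and 0 of 1049 (up to 0.286%).

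The share was then counted without Ly6c2, on 7 genes chosen after their values were seen to be higher in Ly6c2 high cells: Plac8, Ccr2, Ms4a4c, Ifitm6, Hp, Chil3 and Vcan. After thinning to 5000 UMIs, at least 3 of the 7 were found in 23.2% of gated non-cycling cells in young PBS (22.1 to 24.3%). It was 11.9% in old PBS (11.1 to 12.8%) and 23.8% in old rMETRNL (22.8 to 24.95%). Within the Ly6c2 high cells, at least 3 of the 7 were found in 60.2%, 43.0% and 64.6%. Within gated non-cycling cells with no Ly6c2 UMI they were found in 11.3%, 6.51% and 11.5%. The 7-gene share was thus lowest in old PBS within both kinds of cell, so it is no separate count of Ly6c2 high cells. Not every gene of the 7 had its lowest share in old PBS: Chil3 was found in 13.4%, 14.9% and 24.3% of the cells, and Vcan in 2.68%, 2.73% and 4.57%.

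Some of the 7 genes were also found in the Pdgfra cells, which carried at least 3 of them in 8.38%, 3.48% and 7.84% of cases after the same thinning. Plac8 was found in 43.9%, 30.3% and 36.1% of these cells, Vcan in 70.5%, 76.3% and 82.1% and Hp in 18.1%, 8.83% and 16.4%. The remaining genes, Ccr2, Ms4a4c, Ifitm6 and Chil3, were each found in at most 1.43% of them. In a count added after the data were seen, at least 2 of these 4 were found in 37.2%, 22.3% and 36.4% of gated non-cycling cells. Ms4a4c alone was widespread there, in 63.7%, 35.7% and 52.4%. Of the Pdgfra cells, 0 of 979 (which allows up to 0.306%), 0 of 861 (up to 0.348%) and 2 of 1033 carried 2 of the 4. On these 4 genes the old PBS share was 0.601 times that of young PBS (0.559 to 0.646), and the old rMETRNL share was 1.63 times that of old PBS (1.52 to 1.75). The part of the level per cell in these ratios was not tested.

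The label was set beside its markers, which is a description and no test, since members and gene lists were chosen with earlier results known. Besides Ly6c2, which the rule used, Plac8, Ccr2 and Ifitm6 were at least 2-fold higher in members than in other gated cells of every library, and Ear2 was not. Levels are CPM, counts per 1e6 UMIs summed over the members of a library. Plac8, a small cysteine-rich protein of myeloid cells, was at 975, 475 and 1000 CPM in members and 120, 52.2 and 117 CPM in other gated cells, ratios of 8.14, 9.09 and 8.52. Ccr2 was at 348, 207 and 347 CPM, which was 2.84, 2.04 and 3.05 times the other gated cells. Ifitm6 was at 42.3, 27.4 and 70.7 CPM, with ratios of 4.26, 4.18 and 5.15. Ear2, a ribonuclease, was at 7.12, 8.597 and 4.98 CPM, with ratios of 1.17, 0.634 and 0.481. The members were not free of macrophage genes: after thinning, the complement gene C1qa was found in 73.4%, 69.4% and 67.7% of them, against 94.3%, 95.7% and 93.8% of gated non-cycling cells with no Ly6c2 UMI. In the Pdgfra cells, which should lack it, the share was 7.66%, 10.2% and 9.29%. They are therefore called Ly6c2 high cells rather than monocytes.

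Of 12727 genes with enough UMIs, 106 (0.833%) were at least 2-fold higher in members in all 3 libraries and 396 (3.11%) were at least 2-fold lower. The members were chosen from the same cells, so these counts describe them and are no test. The highest ratio was that of Gm9733, with 16.2, 14.2 and 20.3 CPM in members and 0.908, 0.993 and 0.937 CPM in other gated cells. Hp, the haemoglobin-binding haptoglobin, had ratios of 10.5, 7.56 and 13.3. Cd177, a surface protein best known from neutrophils, had ratios of 9.02, 8.93 and 8.73. Of the 19 listed neutrophil and granulocyte progenitor genes, Ly6g, Retnlg, Elane and Stfa2l1 were at 0 in the members of all 3 libraries. S100a8, also listed, was found in 2.08%, 7.12% and 3.58% of members. In gated non-cycling cells with no Ly6c2 UMI it was found in 3.57%, 7.85% and 8.01%. The 19 genes summed to 102, 99.7 and 114 CPM, against 87.7, 78.9 and 69.95 CPM in other gated cells. Of the 7 that had enough UMIs, 5 were higher in members, 2 of them at least 2-fold in every library. Further leading genes were Ly6i, Klra2, Slfn4, Slpi, Lipg, Crybb1, Bex6, Klrk1, Mcemp1 and Gpr141.

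**Figure D2:**
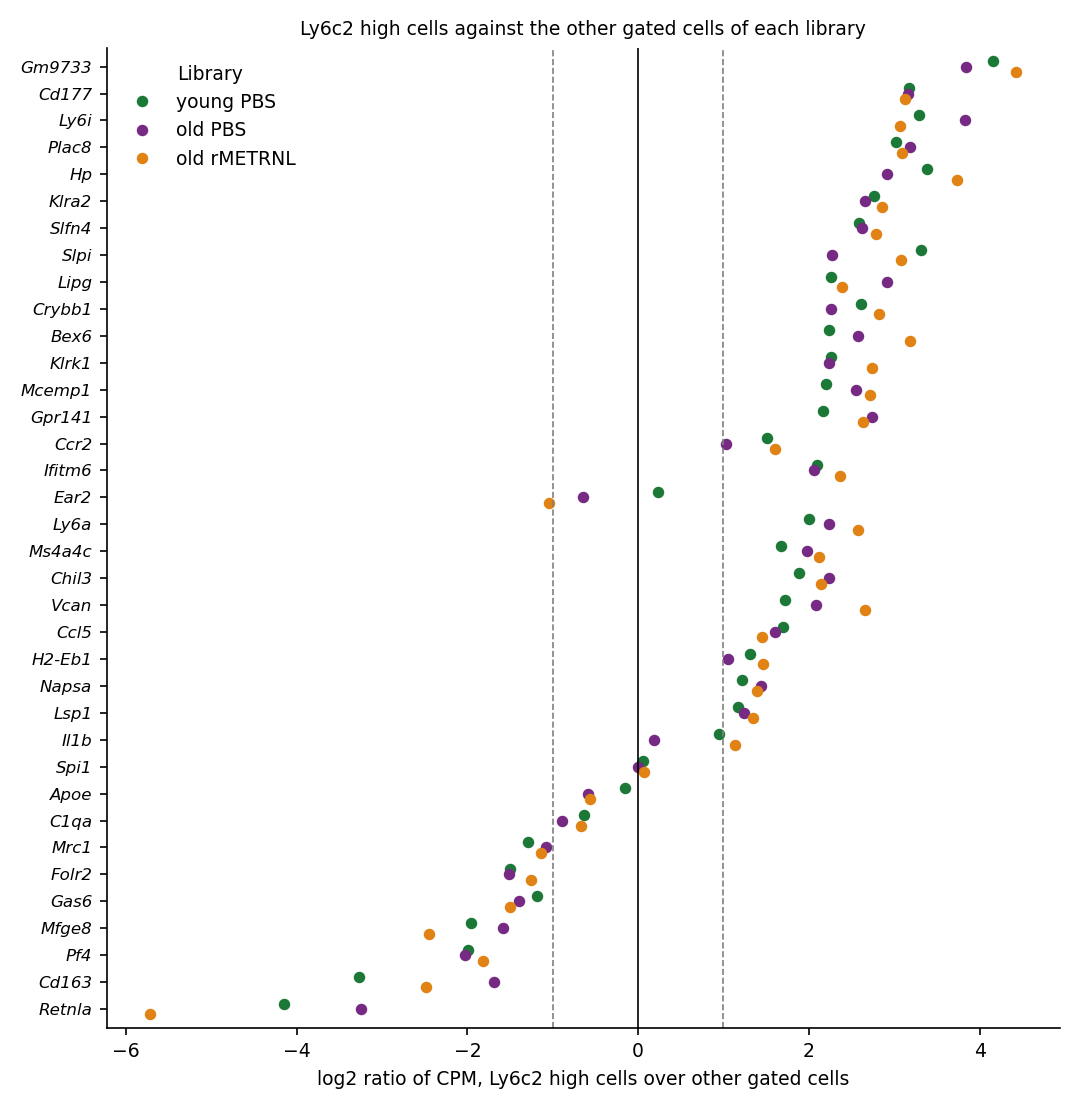
Log2 ratio of CPM in Ly6c2 high cells over other gated cells, with 1 point per library for each gene and dashed lines at 2-fold. Gm9733, Hp and Plac8 lie past the 2-fold line on the higher side in all 3 libraries, Pf4 and Retnla on the lower side, and Ear2 does not.

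Further named genes were past the fold. Ly6a, an interferon-responsive relative of Ly6c2 on chromosome 15, was at 1034, 453 and 816 CPM, which was 4.02, 4.71 and 5.95 times the other gated cells. Chil3, a secreted chitinase-like protein, was at 91.8, 160 and 248 CPM, with ratios of 3.69, 4.70 and 4.43. Thbs1, a matricellular glycoprotein, was at 708, 1108 and 894 CPM, with ratios of 2.43, 2.63 and 3.51. Ccl5, a chemokine for T cells and monocytes, had ratios of 3.25, 3.04 and 2.74. The MHC class II gene H2-Eb1 was at 3445, 3839 and 2965 CPM, with ratios of 2.49, 2.08 and 2.75.

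The genes furthest below the other gated cells were set by the rule: 14 of the 15 lowest were cell cycle genes, because cycling cells could not be members. With cycling cells left out of the comparison, a choice made after the values were seen, 147 of 12272 genes (1.2%) were at least 2-fold lower and 96 (0.782%) at least 2-fold higher. Some macrophage genes were far below the other gated cells. Retnla was at 4.93, 12.96 and 1.90 CPM in members and 88.1, 123 and 102 CPM in other gated cells. Pf4, a platelet-factor chemokine that macrophages also make, was at 426, 312 and 599 CPM against 1700, 1271 and 2110. The mannose receptor Mrc1 was at 141, 191 and 212 CPM, with ratios of 0.410, 0.474 and 0.453. The folate receptor Folr2 had ratios of 0.353, 0.352 and 0.418. By contrast Spi1, the myeloid transcription factor PU.1, had ratios of 1.04, 0.996 and 1.05.

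By list, 55 of 56 measured interferon-stimulated genes were higher in members than in other gated cells on the mean over libraries, with a median log2 ratio of 0.56 (0.46 to 0.67 over genes), and 6 were past the 2-fold threshold higher, beside 0.833% of all genes. The median over all genes tested was -0.11. Of 48 macrophage maturation genes, 42 were lower in members, with a median of -0.46 (-0.73 to -0.34) and 9 past the fold lower, beside 3.11% of all genes. The repair and alternative activation list had 12 of 31 genes higher and 19 lower in members, with 2 at least 2-fold higher and 4 at least 2-fold lower in every library, and its median log2 ratio was -0.18. MHC class II and dendritic genes had a median of 0.60 (0.38 to 0.94), with 2 of 25 past the fold higher and 1 lower. Inflammatory cytokine and NF-kB genes had a median of -0.05, and Il1b, which encodes interleukin 1 beta, was at 1.93, 1.13 and 2.20 times the other gated cells.

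To see how these levels vary across the threshold, gated non-cycling cells were divided by their Ly6c2 UMIs into classes of 0, 1 to 4, 5 to 9, 10 to 19 and 20 or more. Plac8 was higher in each next class of every library. In young PBS it was at 94.5, 261, 465, 737 and 1549 CPM. In old PBS it was at 43.2, 122, 237, 387 and 882 CPM, and in old rMETRNL at 98.9, 226, 484, 793 and 1682 CPM. The interferon-stimulated list summed to 11710 CPM in young PBS cells without Ly6c2 and 19451 CPM in the class of 20 or more. The same 2 classes were at 5726 and 12186 CPM in old PBS, and at 8620 and 19292 CPM in old rMETRNL. The MHC class II list went from 10454 to 25082 CPM, from 13254 to 29750 and from 8432 to 21780. These sums weigh abundant genes most. By gene, 5 of the 14 members of that list with enough UMIs were higher and 9 lower in old PBS than in young PBS Ly6c2 high cells, 0 and 2 of them past 1.5-fold beside 3.68% and 5.6% of all genes, with a median log2 ratio of -0.20. The maturation list went from 112183 to 74796 CPM in young PBS. For the interferon list, even the old PBS cells with most Ly6c2 were close to the young PBS cells that had none.

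**Figure D3:**
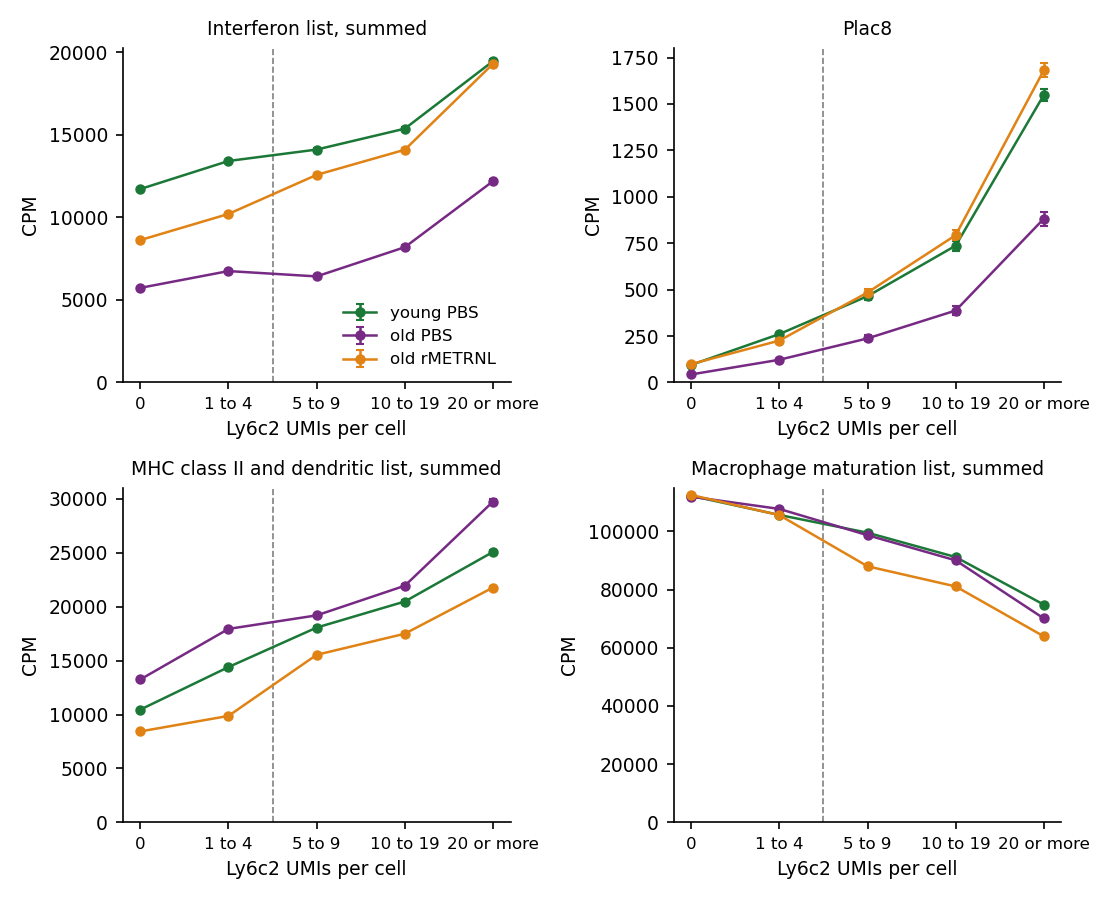
Level in CPM of the summed interferon, MHC class II and maturation lists and of Plac8 in gated non-cycling cells, by class of Ly6c2 UMIs, with 1 line per library, Poisson 95% intervals and a dashed line at the threshold. The old PBS line is lowest for Plac8 and the interferon list and highest for the MHC class II sum, and the maturation list is lower in each next class of all 3 libraries.

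The members were not uniform. After thinning, the 10th to 90th percentiles of interferon-stimulated UMIs in young PBS members were 28.4 and 163, and the medians of the 3 libraries were 79, 38.5 and 71. Members with a Plac8 UMI had medians of 92, 58 and 89 interferon-stimulated UMIs, against 44, 22 and 34.5 in members without. They had fewer maturation UMIs, with medians of 354, 268 and 262 against 536.5, 505 and 511. UMIs in a thinned cell add to a fixed total, so a higher list leaves less for the others.

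To ask how Ly6c2 high cells differ with age, members of old PBS were compared with those of young PBS. A gene was past the fold at a ratio of at least 1.5 in either direction. Of 8334 genes with enough UMIs, 307 (3.68%) were higher and 467 (5.60%) lower in old PBS. All 56 measured interferon-stimulated genes were lower, 45 of them past the fold, with a median log2 ratio of -0.86 (-0.94 to -0.75) against 0.033 over all genes. In other gated cells the same genes gave 2.05% higher and 3.32% lower. There 43 of the 56 were past the fold, with a median of -1.03, so the lower level was seen in both.

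To ask how they differ with rMETRNL, members of old rMETRNL were compared with the same old PBS library, so both comparisons share it and neither supports the other. Here 441 genes (5.29%) were higher and 164 (1.97%) lower. All 56 interferon-stimulated genes were higher, 49 past the fold, with a median of 0.88 (0.79 to 0.97). In other gated cells 2.02% of genes were higher and 1.3% lower, 30 of the interferon-stimulated genes were past the fold and their median was 0.62. The ratio was further from 1 in members for 54 of the 56 genes. For old PBS over young PBS this held for 14 of the 56, and for old rMETRNL over young PBS for 10. These differences were not tested. Against young PBS, 132 genes (1.58%) were higher and 83 (0.996%) lower in old rMETRNL members, against 0.66% and 0.672% in other gated cells, and the interferon-stimulated median was 0.08 (0.02 to 0.17), with 37 of 56 genes higher and 1 past the fold. In other gated cells that median was -0.34, with 54 of 56 genes lower and 6 past the fold.

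**Figure D4:**
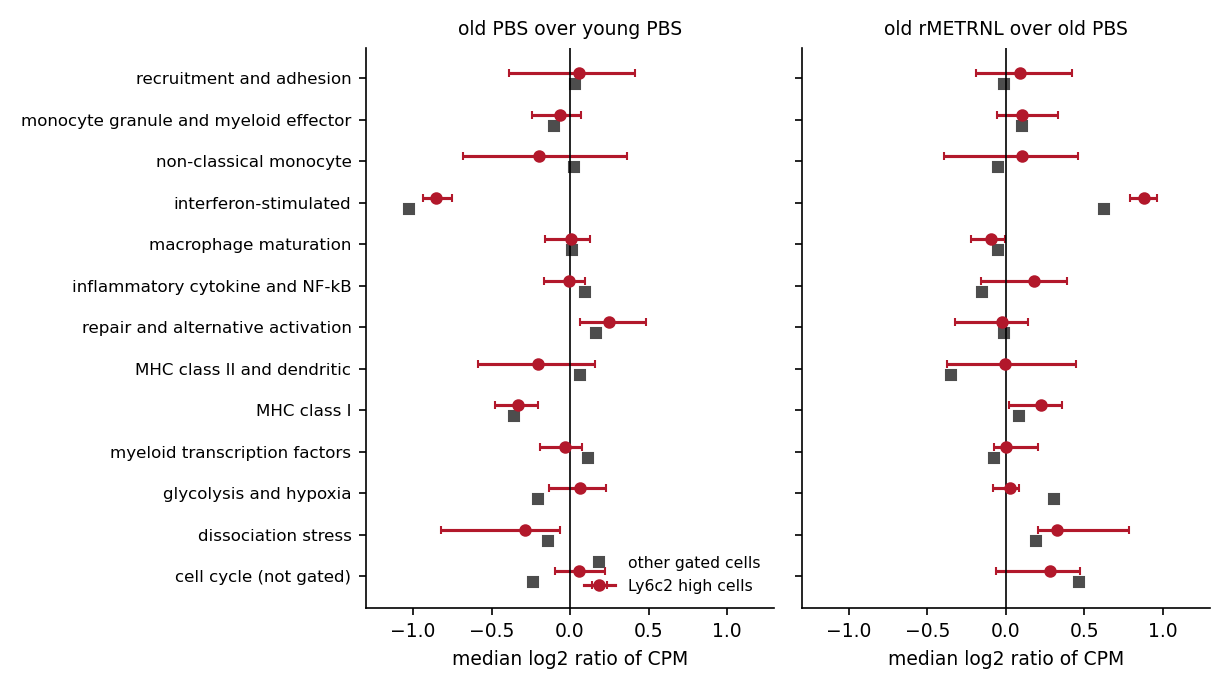
Median log2 ratio of each gene list between libraries, in Ly6c2 high cells (circles, with order-statistic 95% intervals over genes) and in other gated cells (squares). The interferon-stimulated list lies at -0.86 for old PBS over young PBS and at 0.88 for old rMETRNL over old PBS in Ly6c2 high cells.

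Ifit3, an antiviral protein whose promoter is shown above, was at 225, 70.5 and 233 CPM in members. Old PBS was thus 0.313 times young PBS (0.286 to 0.343) and old rMETRNL 3.31 times old PBS (3.02 to 3.62). Ifit3b was at 54.9, 12.5 and 50.6 CPM. Cxcl10, the chemokine ligand of Cxcr3, was at 378, 111 and 382 CPM, and its ratio of 3.45 for old rMETRNL over old PBS (3.21 to 3.71) compared with 1.60 in other gated cells. Isg15, a ubiquitin-like modifier, was at 390, 197 and 457 CPM. In all 4 genes old PBS was the low library. Irf7, a transcription factor that amplifies interferon production, was at 976, 483 and 744 CPM. With at least 10 Ly6c2 UMIs its rMETRNL log2 ratio became 0.51, no longer past the fold. Oas1a, a sensor of double-stranded RNA, did not pass the fold in the treatment comparison, at 51.2, 34.1 and 41.9 CPM. After thinning, Cxcl10 was found in 46.6%, 50.1% and 49.0% of Pdgfra cells, against 30.6%, 18.6% and 29.3% of members. Ifit3 was found in 35.4%, 23.3% and 27.7% of Pdgfra cells, against 44.2%, 15.4% and 39.4% of members.

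**Figure D5:**
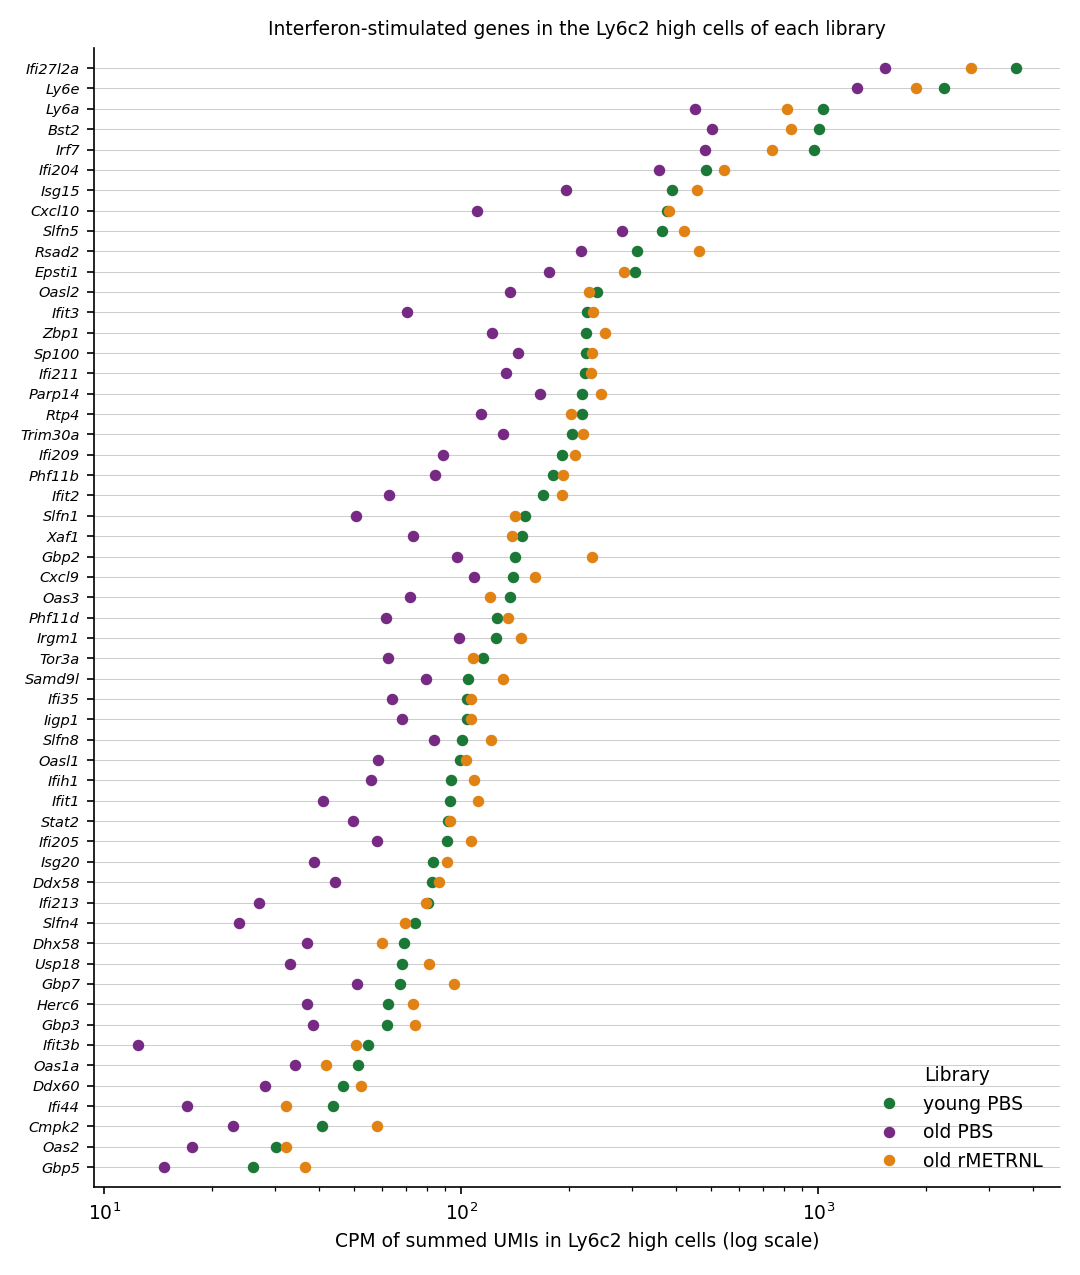
Level in CPM of interferon-stimulated genes in Ly6c2 high cells of each library, on a log axis with 1 point per library. For Ifit3 the old PBS library is at 70.5 CPM, below 225 in young PBS and 233 in old rMETRNL.

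Monocyte genes outside that list also had their lowest level in old PBS in several cases. Plac8 in old PBS was 0.487 times young PBS (0.470 to 0.505), and Ccr2 was 0.596 times (0.563 to 0.630). After thinning the Ccr2 log2 ratio of -0.75 became -0.46, no longer past the fold. In other gated cells these ratios were 0.436 for Plac8, lower than in members, and 0.829 for Ccr2. Old rMETRNL was 2.11 times old PBS for Plac8 and 1.67 times for Ccr2, against 2.25 and 1.12 in other gated cells. Chil3 did not follow this order, since old PBS was 1.74 times young PBS (1.61 to 1.89) and old rMETRNL was 1.55 times old PBS (1.46 to 1.66), against 1.37 and 1.65 in other gated cells. With at least 10 Ly6c2 UMIs its rMETRNL log2 ratio of 0.63 became 0.44, no longer past the fold. Vcan, a proteoglycan of monocytes, was at 22.8, 25.3 and 48.1 CPM.

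Among chemokines that draw monocytes and T cells, Ccl12 was at 110, 39.0 and 184 CPM. Its ratio was 0.355 with age (0.313 to 0.401) and 4.73 with rMETRNL (4.20 to 5.33), against 0.630 and 1.82 in other gated cells. On the log2 scale its rMETRNL ratio of 2.24 became 1.48 with at least 3 Ly6c2 UMIs and 1.65 after thinning. Ccl2, the main ligand of Ccr2, was at 620, 597 and 1096 CPM. Ccl3 was at 369, 208 and 411 CPM and Ccl4 at 778, 482 and 1035 CPM. The inflammatory list as a whole had 9 of 36 genes past the fold higher and 2 lower with rMETRNL, beside 5.29% and 1.97% of all genes. Its median log2 ratio was 0.18, which became -0.066 after thinning. Other gated cells had 3 of the list higher and 6 lower, beside 2.02% and 1.3% of all genes there, with a median of -0.15. With age 3 were higher and 6 lower in members, beside 3.68% and 5.6% of all genes. In other gated cells 5 were higher and 5 lower, beside 2.05% and 3.32%. Tnf was at 129, 113 and 122 CPM.

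Several named genes were higher in old PBS members. Mmp19, a matrix metalloproteinase, was at 57.1, 200 and 68.7 CPM, which was 3.50 times young PBS (3.21 to 3.82). Atp6v0d2, a proton pump subunit, was at 33.8, 107 and 47.4 CPM. Its log2 ratio with age was 1.83 with at least 3 Ly6c2 UMIs and 0.99 with at least 10, both past the fold. Inhba, which encodes the activin A subunit, was at 8.34, 36.9 and 12.5 CPM. Gpnmb, a glycoprotein of lipid-laden macrophages, was at 1315, 2431 and 1490 CPM, and Cd36, a scavenger receptor, at 241, 522 and 326 CPM. Gpnmb was 1.82 times higher with age in other gated cells too, close to 1.85 in members. Saa3 had the largest ratio, 6.13 (4.76 to 7.98; log2 2.61, or 3.36 by per-cell means), but its UMIs came from 10, 23 and 20 cells, and 5 cells held 93.6%, 75.6% and 90.4% of them. The maturation list had a median of 0.0064 with age, with 24 of 45 genes higher and 21 lower. Past the fold were 7 higher and 3 lower, beside 3.68% and 5.6% of all genes, and in other gated cells 4 and 1, beside 2.05% and 3.32%.

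Genes that respond to cell dissociation also differed between the libraries. Of 24 such genes, 7 were past the fold lower in old PBS than young PBS (5.6% of all genes), and 5 in other gated cells (3.32%). With rMETRNL 9 were higher in members (5.29% of all genes), and 5 were higher (2.02%) and 1 lower (1.3%) in other gated cells. Hspa1a, a heat shock protein, was at 1770, 664 and 1976 CPM. Nr4a1, an immediate early transcription factor, was at 160, 80.6 and 156 CPM. The part of tissue handling in the differences above was not tested.

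Metrnl, the transcript of the protein that was given, was at 223, 261 and 290 CPM in members, ratios of 1.17 with age (1.11 to 1.24) and 1.11 with rMETRNL (1.05 to 1.17). Neither passed the fold. Other gated cells were at 183, 205 and 205 CPM.

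Transcripts of other cell types were present and uneven. Hbb-bs, a globin chain of red cells, was at 392, 34.0 and 239 CPM, with 95.1%, 48.0% and 66.0% of its UMIs in 1 cell. Col1a1, a fibroblast collagen, was at 143, 32.5 and 110 CPM, with 46.2%, 1.92% and 35.5% in 1 cell. Without doublet calls its log2 ratio was 1.35 with rMETRNL and -0.38 with age, the second not past the fold. After thinning it was -0.80 with age and 0.37 with rMETRNL, the second not past the fold. The muscle actin Acta1 was at 33.5, 97.8 and 38.2 CPM. Summed over each list, erythroid genes were at 646, 64.0 and 393 CPM, fibroblast genes at 705, 410 and 641 CPM, and muscle genes at 124, 339 and 136 CPM. The 15 T, NK and B cell genes summed to 68.5, 46.6 and 76.4 CPM in members, higher in every library than the 40.7, 27.9 and 26.6 CPM of other gated cells. Of these, Cd3g and Jchain were at 0 in young PBS members, Gzma and Ncr1 in old PBS and Cd8a and Jchain in old rMETRNL. The list also holds Klrk1, named above as a leading gene of the Ly6c2 high cells. Of its 6 genes with enough UMIs, 4 were higher and 2 lower in members, and 1 was at least 2-fold higher in every library. The part of other cell types in the other differences was not tested.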

How the data were processed

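The authors deposited tables of unnormalized UMI counts (genes by barcodes) made with Cell Ranger. The file headers name version 5.0.0, the submitters' notes list 5.0.0 and 3.1.0, and the methods name another, which was not settled. The labels name mm10. The annotation release is not given in the sources used here. The 3 libraries held 12168, 12568 and 14012 barcodes with 218059089, 179295668 and 228966697 UMIs, and the members held 13195860, 8026131 and 13650895. Libraries shared 80, 58 and 76 barcodes.

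Counts of members were summed per library and scaled to CPM, with 0.5 added for log2 ratios. Genes needed 50 UMIs in the gated cells of each library (members over others) or 200 over all members (between libraries). Shares had Clopper-Pearson, levels Poisson, and ratios conditional exact 95% intervals. A share of 0 allows up to 3 counts of the total. Doublets were scored with Scrublet: its automatic threshold called none, so the highest scores were called at 0.8% per 1000 barcodes, which marked 86, 36 and 76 members. They were kept, and removed as an alternative. With 1 library per group no test was run. The members, gene lists and settings were chosen with earlier results of these data known. Named genes were the markers, examples from the lists, the 15 leading genes in each direction for members over others, the 12 between libraries, and Metrnl. Some genes that met this rule are not reported here. Positions of exons are from GENCODE M21 (GRCm38). Scripts were tested on simulated data. Software was Python 3.11.15, numpy 2.4.6, scipy 1.17.1, pandas 2.3.3, scanpy 1.11.5 and matplotlib 3.10.9.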

Additional observations from a re-analysis of the deposited data

How the results depend on the processing

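No paired analysis was possible because each group had 1 library and the number 1 in the labels marks no pair. For the same reason no library could be left out. Of 2724 values recomputed under an alternative, 2357 stayed within the interval of the value given (for counts of genes, within 1.5 times), and the others moved further. The sign was the other one for 71, of which 54 lay within that interval. The old PBS share stayed the lowest of the 3 in every alternative run. Shares in the order young PBS, old PBS and old rMETRNL were 16.8%, 9.57% and 16.2% under a stricter cell filter (1000 genes, 5% mitochondrial), 19.8%, 11.3% and 18.3% with at least 3 Ly6c2 UMIs, 11.3%, 5.35% and 10.1% with at least 10, and 9.30%, 4.83% and 8.31% of all filtered cells. The young PBS share was 17.2% after thinning and 14.7% without the cells holding most UMIs of other cell types, an alternative chosen after seeing the data. With at least 3 Ly6c2 UMIs the neutrophil list was at 0.050 for old rMETRNL over old PBS and 0.69 over young PBS, and the interferon list at 0.0091 over young PBS. With at least 10 the share ratio of old PBS over young PBS was 0.474, and the interferon list was at 0.69 for members over others and -0.69 for old PBS over young PBS. Thinning gave 38 genes lower in old rMETRNL than young PBS, the inflammatory list 0.12 for old PBS over young PBS, and the cell cycle list -0.15 for old rMETRNL over old PBS and 0.0039 over young PBS. Without cycling cells, 147 genes were lower in members and the cell cycle list was at -0.22. With no minimum of UMIs, 552 genes were higher in members, and the counts higher and lower were 3719 and 3721 for old PBS over young PBS, 3792 and 3369 for old rMETRNL over old PBS, and 2809 and 2649 for old rMETRNL over young PBS. At the other fold threshold (1.5 for members over others, 2 between libraries) these were 257 higher and 975 lower in members, then 34 and 140, 114 and 18, and 16 and 16. Mean per-cell CPM put the transcription factor list at 0.051 and the cell cycle list at -1.04 for members over others, and median-of-ratios scaling put the transcription factor list at -0.047 for old rMETRNL over young PBS. Past the interval lay 17 sign changes, given in log2. For old PBS over young PBS, Ccl2 was at 0.064 with at least 3 Ly6c2 UMIs, 0.15 thinned and 0.012 by per-cell means, Ccl7 at -0.15 without doublet calls, F13a1 at -0.20 with at least 10 Ly6c2 UMIs, and the T, NK and B cell list at 0.51 with no minimum (-1.84 for old rMETRNL over old PBS). The thinned inflammatory list and cell cycle list above also changed sign. The fibroblast list of members over others was at 0.10 without doublet calls, and over young PBS in old rMETRNL at 0.69 without them and 0.059 with at least 10 Ly6c2 UMIs. Without the cells holding most UMIs of other cell types, Hbb-bs was at 0.41 and the fibroblast list at 0.055 with age, and the same list at 0.11 for old rMETRNL over young PBS. Likewise for members over others the fibroblast list was at 0.17 and the muscle list at 0.064. The causes were not tested.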

Other observations

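Some genes were higher in old rMETRNL members than in young PBS members. Chil3 was 2.71 times the young PBS level (2.53 to 2.89) and Vcan 2.11 times (1.83 to 2.42). Mbd2, which binds methylated DNA, was at 60.0, 98.7 and 139 CPM, and Gdf3, a TGF-beta family ligand, at 20.7, 39.0 and 47.8 CPM. Both were lowest in young PBS and highest in old rMETRNL. F13a1, the coagulation factor XIII A subunit, was at 91.2, 97.6 and 169 CPM, and for this gene and Vcan the old PBS level was close to that of young PBS.

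Cells with 5 or more cycling UMIs and 5 or more Ly6c2 UMIs were left out of the members by the rule, and numbered 41, 21 and 49. They were 3.72%, 3.78% and 4.41% of gated cells with at least 5 Ly6c2 UMIs, against 12.5%, 11.1% and 15.1% cycling among those with fewer. Outside the gate, 226, 145 and 205 cells had at least 5 Ly6c2 UMIs.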
